A study of Mus musculus with 4 samples.

Results

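The interleukin-10 (IL-10) family is a group of small helical cytokines that share class II cytokine receptors. Here 10 of its genes were followed in T-helper 17 (Th17) cells, out of 50600 genes listed for each library. The members were chosen by symbol, matched to the Ensembl identifiers of the count tables, and all 10 found 1 gene each. They are the ligand genes Il10, Il19, Il20, Il22 and Il24, the receptor chain genes Il10ra, Il10rb, Il20rb and Il22ra1, and Il22ra2, which encodes a soluble binding protein for IL-22. Th17 cells are CD4 T cells named for making interleukin-17. The cells were primary Th17 cells of mouse strain C57BL/6NJ, from a CD4 T-cell differentiation protocol, in 1 group of 4 RNA-seq libraries, replicates 1 to 4. No second condition was measured, so levels were compared between genes within a library and between the 4 libraries. The labels number the libraries as biological replicates but give 1 donor identifier for all, and neither age nor sex. Levels of sex-chromosome genes, given below, differed so far between replicates 1 and 2 and replicates 3 and 4 that the 4 libraries cannot all come from 1 animal. Whether the libraries of each such pair came from separate animals is not stated. The p-values of the spread test thus concern the spread between these libraries, which within a pair may be technical. The permutation p-values of contrasts between members do not measure spread. Where all 4 differences have the same sign, they are fixed by the number of libraries.

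Members of the family signal through paired receptor chains. IL-10 binds a receptor of the Il10ra and Il10rb products, and IL-22 one of the Il22ra1 and Il10rb products. IL-19, IL-20 and IL-24 use the Il20rb product with that of Il20ra, and IL-20 and IL-24 can use it with that of Il22ra1 as well. The receptors act through the kinases JAK1 and TYK2 and mainly the transcription factor STAT3. IL-10 restrains inflammation and is made by many helper T cells, whereas IL-22 is a product of Th17 and innate lymphoid cells that acts on epithelial cells, which carry its receptor.

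The libraries held between 24696730 fragments (replicate 2) and 37025016 fragments (replicate 1). Levels are TPM (length-normalised transcript abundance), the fragment count over a gene's exon length, scaled so that each library sums to 1000000. Markers of the labelled cell type were present. All 11 Th17 markers, among them Il17f at 694 ± 73.6 TPM, reached 1 TPM in every library. Each ± is an SD with n = 4.

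The sequence of Il22 is shown first because its level rests on how fragments were shared with a near-identical copy. Iltifb, also called Il22b, lies 79.6 kb from Il22 on chromosome 10. Over the 540 coding bases of each gene, 531 were identical (98.3%) and 9 differed, and the longest stretch without a difference was 215 bases. Coding bases 128 to 217, counted from the first base of the start codon, are printed below in the sense direction from the GENCODE vM21 transcripts. These 90 bases hold 4 of the 9 differences, A150G, C188T, T213C and C217T, where the base of Il22 comes before the position and that of Iltifb after it, and capitals mark those bases.
Il22: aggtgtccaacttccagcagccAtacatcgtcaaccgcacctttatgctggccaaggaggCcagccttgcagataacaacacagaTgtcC
Iltifb: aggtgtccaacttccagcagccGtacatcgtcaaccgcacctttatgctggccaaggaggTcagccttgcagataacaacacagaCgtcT
Of all 50-base words in the annotated Il22 transcript, 41.0% also occurred in Iltifb. Fragments lying wholly in those words cannot be assigned to either gene, and by the counting program's default they are left out.

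Windows around the annotated starts are shown because counts were found for Il22 in every library and for Iltifb in 1. Each runs from 250 bases before the start to 50 after it, from RefSeq on GRCm38.p6, at chr10:118204714-118205013 on the plus strand for Il22 and chr10:118294989-118295288 on the minus strand for Iltifb. Capitals mark the motif TATAAA, searched on both strands.
Il22: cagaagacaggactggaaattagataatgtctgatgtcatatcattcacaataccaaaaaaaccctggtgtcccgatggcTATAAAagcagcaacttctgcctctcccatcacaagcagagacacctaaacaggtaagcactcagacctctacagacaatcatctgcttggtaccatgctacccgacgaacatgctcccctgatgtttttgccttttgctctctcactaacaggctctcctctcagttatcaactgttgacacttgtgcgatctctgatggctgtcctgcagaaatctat
Iltifb: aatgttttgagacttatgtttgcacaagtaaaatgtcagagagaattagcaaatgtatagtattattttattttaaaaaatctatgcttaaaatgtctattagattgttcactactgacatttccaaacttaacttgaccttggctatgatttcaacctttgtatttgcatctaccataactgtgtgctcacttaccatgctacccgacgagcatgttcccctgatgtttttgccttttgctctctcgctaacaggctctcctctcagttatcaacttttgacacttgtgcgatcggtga
The best local alignment of these windows covered bases 172 to 273 of the Il22 window and 194 to 295 of the Iltifb window, with 98 of 102 positions identical. TATAAA occurred once in the Il22 window, on the sense strand, and nowhere in that of Iltifb. In the Il22 window it began at position -170 from the annotated start. Whether the motif bears on the level of either gene was not tested. Of 32851 RefSeq windows of this length, 8.32% held it on the sense strand and 13.6% on either strand. RefSeq windows of 6 of these 11 genes (10 members and Iltifb) were found, those of Il19, Il20, Il22, Il20rb, Il22ra1 and Iltifb, and that of Il22 alone among them held the motif.

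Among the ligands, Il10 led in each library, Il22 and Il24 followed, and Il19 and Il20 were at or under the detection limit of this depth. Of the 10 members, 4 reached 1 TPM in every library (Il10, Il22, Il10rb and Il20rb), against 22.1% of all genes listed and 44.8% of the 21764 protein-coding genes. Il24 and Il10ra were counted in every library but missed that threshold in at least 1, Il19 had 3 fragments in all, and Il20, Il22ra1 and Il22ra2 had none. The median of the members' mean TPM was 0.749, against 0.275 over all protein-coding genes.

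Il10 (ENSMUSG00000016529.5, chromosome 1, 131019845 to 131024974 in mm10, plus strand) was counted with 119, 94, 62 and 81 fragments in replicates 1 to 4. These counts gave 8.34, 9.79, 4.89 and 5.67 TPM, a mean of 7.17 ± 2.29 TPM. Replicates 1 and 2 were high and replicates 3 and 4 low, and the ratio of replicate 2 to replicate 3 was 2.001. The 95% counting interval (exact Poisson) of replicate 2 ran between 7.91 and 11.98 TPM and that of replicate 3 between 3.75 and 6.27 TPM, without overlap. Among genes with a fragment in some library, Il10 stood between percentile 55.0 and 61.4.

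Il22 (ENSMUSG00000074695.3, chromosome 10, 118204942 to 118210047, plus strand) was counted with 19, 15, 28 and 28 fragments, or 1.57, 1.84, 2.61 and 2.31 TPM, in replicates 1 to 4. Its highest libraries, 3 and 4, were the lowest of Il10, but the counting intervals of Il22 in its highest library (1.73 to 3.77 TPM) and its lowest (0.947 to 2.46 TPM) overlapped. Iltifb, its copy described above, had 3 fragments, all in replicate 3. If no fragment from the shared words was counted, the length left would put Il22 at 3.53 ± 0.787 TPM in place of 2.08 ± 0.464 TPM, a setting chosen after seeing the data. The gene order around Il22 also holds Ifng, the interferon-gamma gene and hallmark cytokine of Th1 cells, which had 2 fragments in all. The nearby genes Mdm1 and Dyrk2 were at 10.4 ± 0.947 and 31.1 ± 0.562 TPM, and on the far side of Mdm1 Rap1b, which encodes a small GTPase, was at 1067 ± 29.4 TPM and the nuclear pore gene Nup107 at 123 ± 3.91 TPM.

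Il24 (ENSMUSG00000026420.16, chromosome 1, 130882074 to 130887454, minus strand), whose product signals through the Il20rb chain, had 19, 11, 16 and 15 fragments. These gave 1.26, 1.08, 1.19 and 0.992 TPM in replicates 1 to 4, so that replicate 4 alone put it below 1 TPM. Its libraries differed by at most 1.27 times, and the intervals of the highest and the lowest overlapped. Il19 (ENSMUSG00000016524.12, chromosome 1, 130932656 to 130940115, minus strand) had 2 fragments in replicate 1, 1 in replicate 2 and none in replicates 3 and 4. Il20 (ENSMUSG00000026416.12, chromosome 1, 130906985 to 130911451, minus strand) had none. A count of 3 fragments, taken as the limit that a count of 0 allows, corresponds to 0.356 TPM for Il19 and 0.345 TPM for Il20 in the shallowest library. Intervals and limits of this kind cover counting error only.

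**Figure D1:**
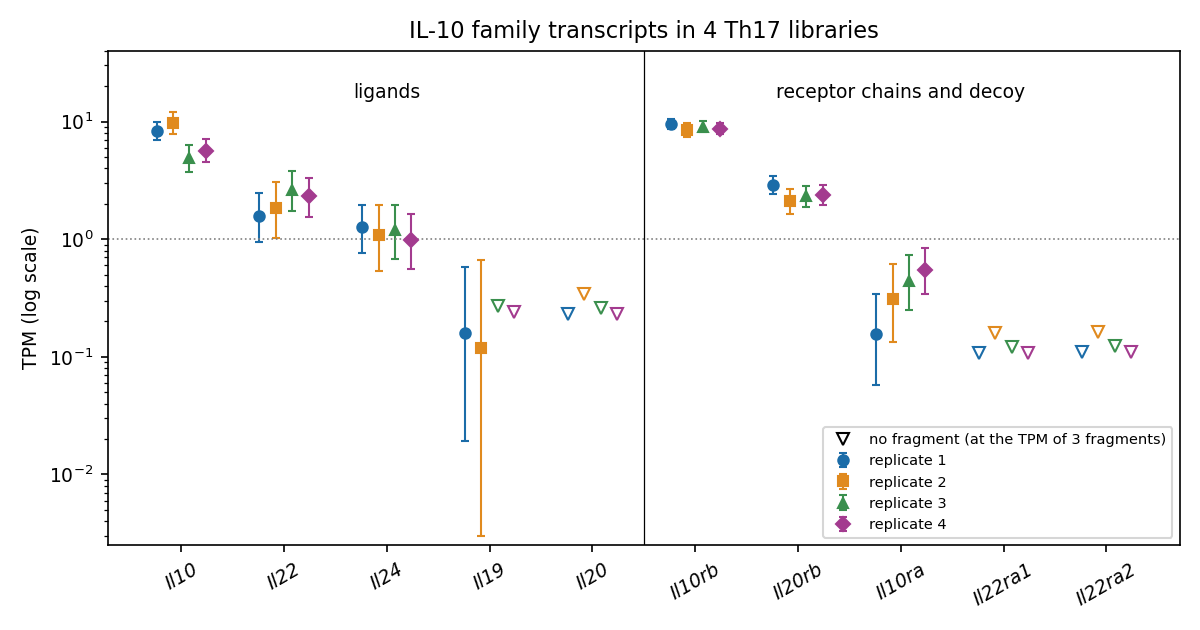
TPM of the 10 members on a log scale, with 1 point per library, 95% exact Poisson intervals of the counts as bars, and open triangles at the TPM of 3 fragments where no fragment was counted. Il10 and Il10rb lie at 4.89 to 9.79 TPM, while Il20, Il22ra1 and Il22ra2 have no fragment in any library. The dotted line marks 1 TPM.

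Of the summed TPM of the 5 ligands, which was 10.5 ± 1.98, Il10 held 67.3% ± 9.29, Il22 21.0% ± 8.14, Il24 11.1% ± 2.16 and Il19 0.584% ± 0.703. The share of Il10 was 73.6%, 76.3%, 56.3% and 63.2% in replicates 1 to 4, and that of Il22 was 13.9%, 14.4%, 30.0% and 25.8%. Both shares set replicates 1 and 2 apart from 3 and 4 without overlap, Il10 in one direction and Il22 in the other, and shares of 1 total are bound to move against each other. Il10 exceeded Il22 by 1.38 ± 0.61 and Il24 by 1.90 ± 0.41 on the log2(TPM + 1) scale, in 4 of 4 libraries in each case (exact sign-flip permutation test over libraries, two-sided, p = 2/16 for each and the same after Benjamini-Hochberg adjustment over 5 contrasts). With 4 libraries no smaller p exists, so no contrast between members can pass 0.05. As a ratio of TPM, Il10 stood between 1.88 and 5.31 times Il22. With the unshared length of Il22 in place of the full length, the share of Il22 was 21.4%, 22.1%, 42.1% and 37.0% in replicates 1 to 4, a mean of 30.7% ± 10.5, and that of Il10 had a mean of 59.2% ± 10.9. Il10 then still held the larger share in 4 of 4 libraries. With that length the difference was 0.82 ± 0.64, still positive in 4 of 4 libraries.

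**Figure D2:**
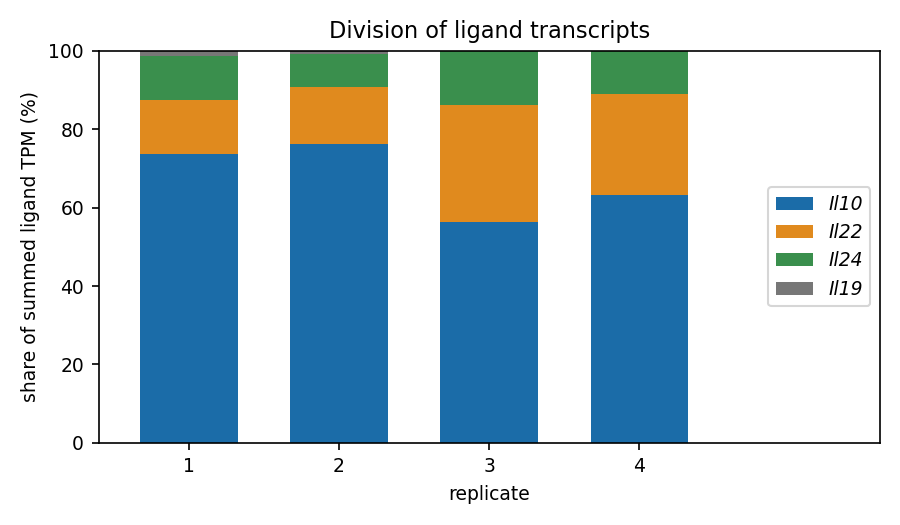
Share of the summed TPM of the ligand genes held by each ligand, in percent, with 1 stacked bar per library. Il10 takes 56.3% to 76.3% of each bar and Il22 13.9% to 30.0%, and Il20, with no fragment, has no segment.

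The 4 ligand genes on chromosome 1 form a cluster of 143 kb from the start of Il24 to the end of Il10. Il24, Il20 and Il19 lie on the minus strand and Il10 on the plus strand. On the side of Il24 the neighbouring genes were near 0. Fcmr and Pigr, which encode immunoglobulin receptors, were at 0.0545 and 0.0341 TPM with 4 and 5 fragments in all, and Fcamr, a receptor of the same kind, had no fragment. On the side of Il10, Mapkapk2, a kinase of the p38 pathway whose start lies 33.9 kb from that of Il10, was at 278 ± 10.6 TPM, and Dyrk3, a protein kinase gene, was at 9.99 ± 0.706 TPM. Farther out, the translation factor gene Eif2d was at 37.6 ± 0.929 TPM and Rassf5, a regulator of lymphocyte adhesion, at 154 ± 8.09 TPM. Of these 7 neighbours 4 were tested for spread between libraries, as described below. Of the 4, 0 were called (edgeR), against 0.304% of all genes tested, and 0 were under 0.05 before adjustment, against 5.69%. At such shares, 0 of 4 does not set the neighbours apart from other genes.

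**Figure D3:**
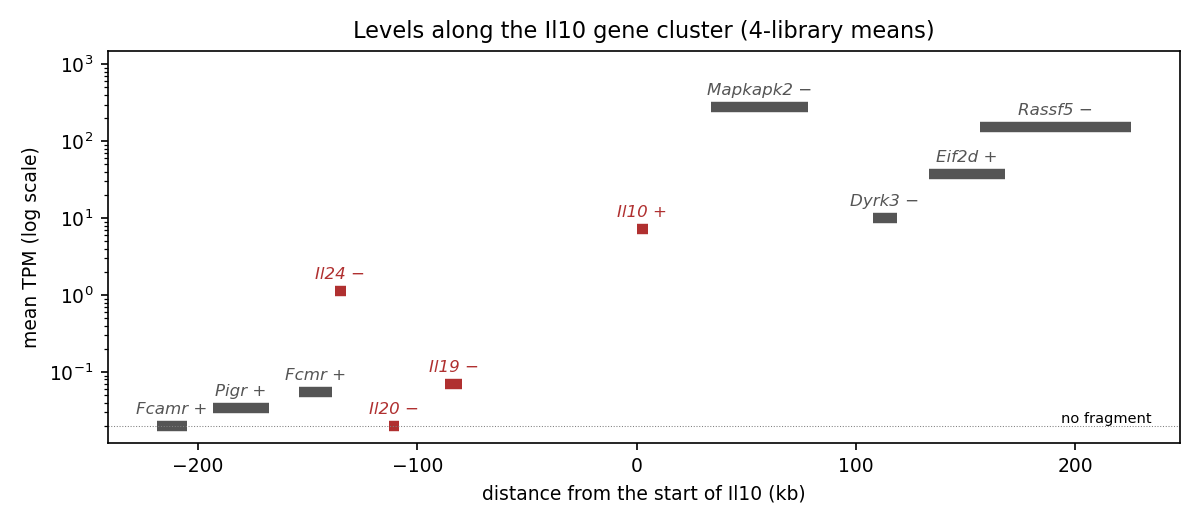
Mean TPM over 4 libraries, on a log scale, of the genes around Il10, drawn at their distance in kb from the start of Il10, with family members in red and the strand beside each name. Means are below 0.1 TPM from Fcamr to Il19 except for Il24 at 1.13 TPM, Il10 is at 7.17 TPM, and the genes to its right lie between 9.99 TPM (Dyrk3) and 278 TPM (Mapkapk2).

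Of the receptor genes, the shared chain Il10rb was the most abundant and the chains that make each receptor specific were low or had no fragment. Il10rb (ENSMUSG00000022969.13, chromosome 16, 91406164 to 91425834, plus strand), the second chain of the receptors for IL-10, IL-22 and the lambda interferons, had 395, 237, 333 and 361 fragments in replicates 1 to 4. These gave 9.53, 8.49, 9.04 and 8.69 TPM, a coefficient of variation of 5.08%, the smallest of the members. Il10rb also had the most fragments of the members, 1326 in all, and counting error is relatively smaller at high counts. Its libraries lay close together, and the counting intervals of the highest and the lowest overlapped. An annotated readthrough gene, Gm21970, covers 14.9% of its exon bases and had no fragment. Were fragments in that overlap left out, as is the default, the remaining length would give Il10rb 10.5 ± 0.534 TPM, above the 8.94 ± 0.454 TPM of the full length by more than the SD.

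Il10ra (ENSMUSG00000032089.16, chromosome 9, 45253837 to 45269149, minus strand), the chain that binds IL-10, had 6, 8, 15 and 21 fragments, or 0.158, 0.312, 0.443 and 0.550 TPM, in replicates 1 to 4. Replicates 3 and 4, low for Il10, were the higher for Il10ra, but its highest and lowest libraries had overlapping counting intervals, 0.341 to 0.841 TPM and 0.0578 to 0.343 TPM. Il10rb exceeded Il10ra by 2.87 ± 0.23 on the log2(TPM + 1) scale in each of 4 libraries (exact permutation p = 2/16), with TPM ratios from 15.8 to 60.5. Il10 itself exceeded Il10ra by 2.55 ± 0.55 in 4 of 4 libraries (the same exact p of 2/16).

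Il20rb (ENSMUSG00000044244.18, chromosome 9, 100457719 to 100486788, minus strand), the shared chain for IL-19, IL-20 and IL-24, had 132, 65, 94 and 109 fragments, or 2.88, 2.11, 2.31 and 2.38 TPM, in replicates 1 to 4. Replicate 1 was the highest, and its interval overlapped that of replicate 2, the lowest. Both chains that pair with the Il20rb product lacked fragments. Il22ra1 (ENSMUSG00000037157.8, chromosome 4, 135728172 to 135752140, plus strand) had no fragment, with a limit of 0.159 TPM in the shallowest library, and Il20ra, on chromosome 10, had none either, with a limit of 0.169 TPM. Il22ra2 (ENSMUSG00000039760.8, chromosome 10, 19621998 to 19634681, plus strand), the decoy that binds IL-22, likewise had none, with a limit of 0.164 TPM. Il10rb exceeded Il20rb by 1.54 ± 0.08 on the log2(TPM + 1) scale, again in 4 of 4 libraries (exact permutation p = 2/16). No contrast was computed between Il22ra2 and Il22ra1, since neither had a fragment.

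Ordered by mean TPM, the members ran Il10rb, Il10, Il20rb, Il22, Il24, Il10ra and Il19, followed by the 3 genes with no fragment. The ranges over libraries separated Il10 from Il20rb, Il22 from Il24 and Il24 from Il10ra. They overlapped between Il10rb and Il10, where Il10rb was above Il10 in 3 of 4 libraries, and between Il20rb and Il22, also in that order in 3 of 4. Taking the unshared length of Il22, its mean of 3.53 TPM lay above the 2.42 ± 0.329 TPM of Il20rb.

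Spread between libraries was tested for every gene with enough fragments in each library. Of 11847 genes tested, 36 (0.304%) varied more than genes of their abundance at an adjusted p under 0.05, and 674 (5.69%) did so at an unadjusted p under 0.05 (edgeR quasi-likelihood fit, one-sided). Of the members, 5 passed the filter, and 0 of them were called. Il10 came nearest, with an unadjusted p of 0.0138 and an adjusted p of 0.610, and was the 1 member under 0.05 before adjustment. Among the Th17 markers, Il17f was the 1 gene of 11 called (edgeR adjusted p = 0.00785), at 703, 724, 589 and 759 TPM in replicates 1 to 4, lowest in replicate 3 as Il10 was. The adjusted p was 0.993 for Il22 and Il20rb, 0.996 for Il10rb and 0.999 for Il24. Il10ra, with as few as 6 fragments in a library, was not tested, nor were Il19, Il20, Il22ra1 and Il22ra2.

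The division of the libraries by Il10 matched that by genes of the sex chromosomes. Xist, the X-inactivation RNA, was at 186, 161, 0.687 and 0.721 TPM and the Y-linked Ddx3y at 0.442, 0.446, 88.6 and 83.2 TPM in replicates 1 to 4. Mean Il10 was 9.07 TPM in replicates 1 and 2 and 5.28 TPM in replicates 3 and 4, a ratio of 1.72. The same means were 1.71 and 2.46 TPM for Il22, 0.235 and 0.497 TPM for Il10ra, and 9.01 and 8.87 TPM for Il10rb. Replicates 1 and 2 thus carried Xist, as female cells do, and replicates 3 and 4 carried Ddx3y, as male cells do, so at least 2 animals were used. With 2 libraries on each side and no label for the division, no test was made, and the part of sex or of the source of the cells in these values was not tested.

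**Figure D4:**
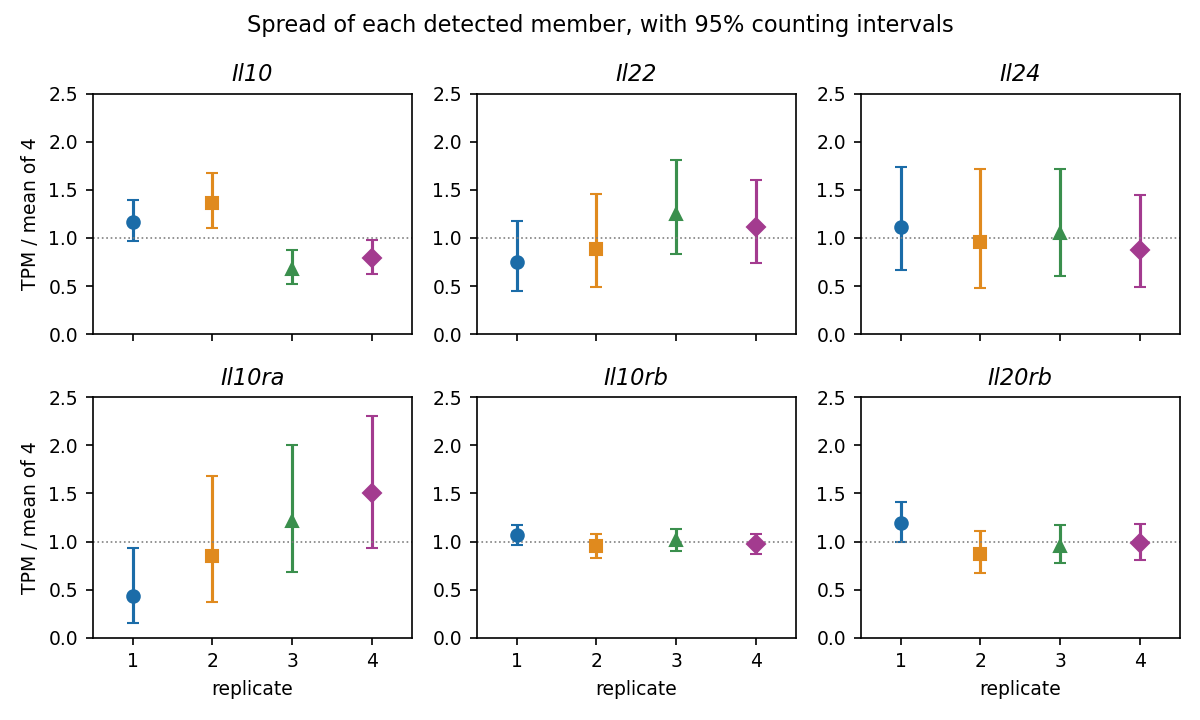
TPM of the 6 members with fragments in every library, divided by each gene's mean over 4 libraries, with 95% exact Poisson intervals of the counts as bars. The intervals of Il10 in replicates 2 and 3 do not overlap, whereas for the other 5 members the highest and lowest libraries have overlapping intervals.

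The 5 genes whose log2 CPM (library-scaled counts) followed that of Il10 most closely over the 4 libraries, by the root-mean-square difference of deviations from each gene's mean, were Ppp1r3f, Gm9958, S1pr3, Lbp and Pdpn. The difference was 0.04 for Ppp1r3f, on chromosome X, a subunit gene of protein phosphatase at 0.499, 0.636, 0.301 and 0.338 TPM in replicates 1 to 4, and between 0.07 and 0.08 for the others. Gm9958 was at 6.94, 8.29, 4.51 and 5.21 TPM in replicates 1 to 4. Pdpn, which encodes the membrane glycoprotein podoplanin, was at 3.24, 3.30, 1.82 and 1.97 TPM. Lbp, which encodes lipopolysaccharide-binding protein, was at 1.60, 1.75, 0.942 and 1.18 TPM, and S1pr3, a sphingosine-1-phosphate receptor gene, was at 0.430, 0.548, 0.231 and 0.307 TPM. These were high in replicates 1 and 2 as Il10 was, which follows from how they were chosen. With an adjusted p of 0.928 to 0.993 (edgeR) none of the 5 was called. A likeness over 4 libraries is a description.

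The intracellular part of the pathway was abundant. All 11 genes listed for kinases, STAT factors and inhibitors reached 1 TPM in every library, with a median of 151 TPM. Of these, 0 of 11 were called as variable (edgeR adjusted p under 0.05), against 0.304% of all genes tested. Before adjustment 0 of 11 were under 0.05, against 5.69%. Stat5a and Stat5b, the STAT factors of interleukin-2 signalling, were at 257 ± 5.64 and 196 ± 6.097 TPM, the kinase gene Jak2 at 249 ± 8.37 TPM and Stat3 at 226 ± 6.62 TPM. Of the kinases used by IL-10 family receptors, Jak1 was at 151 ± 5.72 TPM and Tyk2 at 25.8 ± 1.46 TPM. Socs3, a feedback inhibitor that STAT3 induces, was at 47.1 ± 0.983 TPM, and Pias3, a binding inhibitor of STAT3, was the lowest at 4.62 ± 0.222 TPM. These genes serve many other cytokine receptors as well.

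The interferon receptor chain genes beside Il10rb, of the same class II family, were at 1.88 to 3.07 times its TPM within a library. Ifnar2, Ifnar1 and Ifngr2, interferon receptor chains encoded next to it on chromosome 16, were at 23.4 ± 1.59, 17.8 ± 0.427 and 24.98 ± 1.24 TPM, or 2.62 ± 0.147, 1.998 ± 0.0843 and 2.80 ± 0.184 times Il10rb. Ifnar2 ends 0.574 kb before Il10rb starts. Farther along, Tmem50b was at 25.03 ± 1.21 TPM and Gart, a purine synthesis gene, at 444 ± 6.72 TPM, while Olig2, a neural factor, had no fragment. Beside Il22ra2 and Il20ra on chromosome 10, Ifngr1 was at 18.6 ± 1.23 TPM and Tnfaip3, an inhibitor of NF-kB signalling, at 73.2 ± 3.74 TPM, while Olig3 had no fragment. F3, the tissue factor gene and a distant relative of these receptors, was at 4.57 ± 1.14 TPM. It was not called (edgeR adjusted p = 0.740) but was under 0.05 before adjustment. The other family genes had 3 fragments among them, all of Iltifb, with none for Il20ra, Ifnlr1, the lambda interferon receptor chain that pairs with that of Il10rb, or the lambda interferon genes Ifnl2 and Ifnl3.

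**Figure D5:**
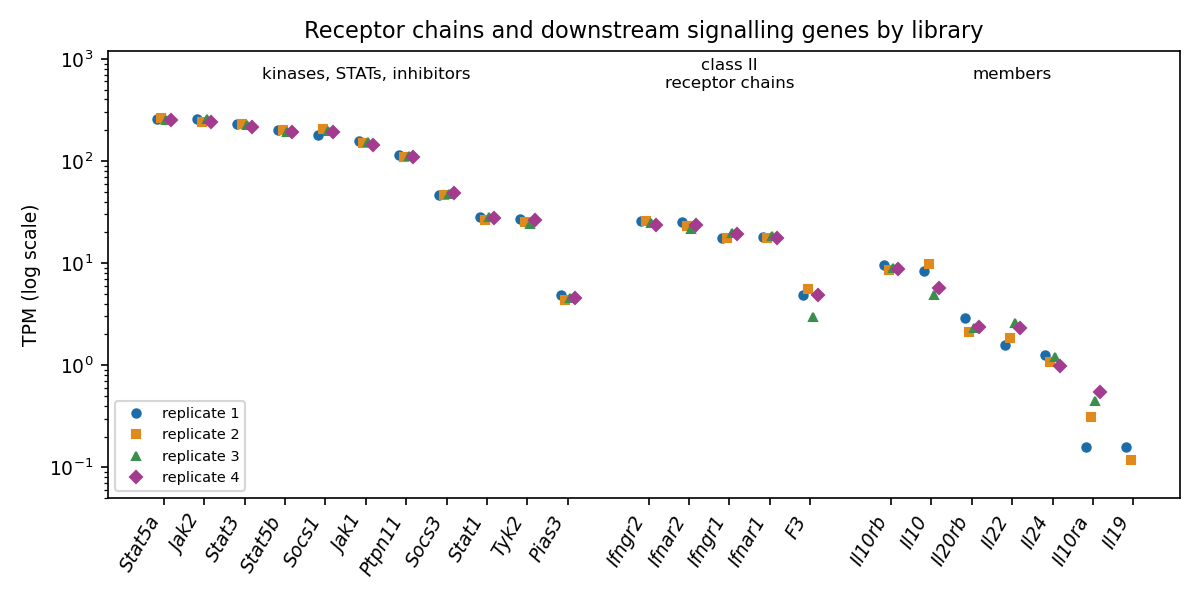
TPM by library, on a log scale, of 11 signalling genes, 5 genes of class II receptors and the 7 members with a fragment, each block ordered by its mean. Signalling genes run from 4.39 to 263 TPM and members run from 0.119 TPM for Il19 to 9.79 TPM for Il10, with libraries at 0 not drawn.

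Transcription factors listed for Il10 and Il22 were mostly abundant. Of 15 listed for Il10, which include E4f1 (41.3 TPM) although no role of it there is known, 13 reached 1 TPM in every library, led by Irf4 at 1647 ± 43.8, Batf at 594 ± 7.16, the Ikaros gene Ikzf1 at 260 ± 3.80 and Maf, an activator of Il10 in helper T cells, at 206 ± 8.87 TPM. The lowest was Eomes, with 7 fragments in all. Of the 15, 14 were tested and 0 called, against 0.304% of all genes tested. Without E4f1 the list had 12 of 14 at 1 TPM, with 13 tested and 0 called. Prdm1, which encodes Blimp-1 and also activates Il10, was at 0.214, 0.611, 0.5004 and 0.559 TPM in replicates 1 to 4. Neither it nor Bhlhe40, a repressor of Il10 at 153 ± 13.2 TPM, passed the test, although both were under 0.05 before adjustment. The edgeR adjusted p was 0.837 for Prdm1 and 0.124 for Bhlhe40. Bhlhe40 was at 158, 134, 154 and 165 TPM in replicates 1 to 4, an order that did not follow that of Il10 in either direction. Of 11 factors listed for Il22, all reached 1 TPM, among them Batf, Hif1a at 564 ± 22.7 TPM and Stat3. Arnt, the partner of the aryl hydrocarbon receptor, was the lowest at 23.4 ± 0.323 TPM. Here 0 of 11 were called, and 0 were under 0.05 before adjustment, against 5.69% of all genes tested. The aryl hydrocarbon receptor gene Ahr, an activator of Il22, was at 179 ± 8.002 TPM.

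Most genes of the macrophage response to IL-10 were present, and most of the epithelial response to IL-22 had no fragment. Of 12 genes that IL-10 induces in macrophages, 11 reached 1 TPM in every library, led by Il4ra at 166 ± 8.25, Ddit4 at 112 ± 8.52, Bcl3 at 84.8 ± 1.66 and Sbno2 at 79.5 ± 1.86 TPM, whereas Cd163, a macrophage receptor, had 3 fragments. Of the 11 tested none was called, and 3 were under 0.05 before adjustment (edgeR), against 5.69% of all genes tested. In replicates 1 to 4, Il1rn, the interleukin-1 receptor antagonist, was at 9.11, 9.76, 6.26 and 8.84 TPM. Il4ra was at 163, 177, 158 and 165 TPM, and Ddit4, lower in replicates 1 and 2, at 103, 107, 121 and 118 TPM. Several of these genes respond to other signals in T cells. Of 10 genes that IL-22 induces in epithelial cells, the mucin gene Muc1 at 2.12 ± 0.345 TPM was the 1 with any fragment. The antimicrobial lectin genes Reg3b and Reg3g and the siderophore binder Lcn2 were among the 9 without.

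Markers of other cell types were examined because such cells carry or make members of the family in tissue. Of 9 myeloid markers, 1 (Cd68, 5.24 ± 1.02 TPM) reached 1 TPM in every library, and Lyz2, C1qa and Fcgr1 had no fragment. The summed myeloid level was 4.03 to 6.38 TPM over the libraries. Of 6 B-cell markers 1 did, Ighm at 54.8 ± 4.13 TPM, with Ms4a1 at no fragment, and the sum was 49.3 to 58.3 TPM. Of 7 epithelial markers 1 did, Cldn4 at 1.35 ± 0.0518 TPM, with Epcam at 1.52 ± 0.688 TPM below 1 in replicate 2, no fragment for Krt8, Krt5 and Krt14, and a sum of 2.51 to 3.93 TPM. Markers of innate lymphoid and gamma delta T cells reached 1 TPM in 4 of 7 cases, led by Id2 at 336 ± 16.3 and Trdc at 5.17 ± 0.584 TPM, with Ncr1 at no fragment and a sum of 330 to 364 TPM. Regulatory T-cell markers did so in 5 of 6 cases, led by Lag3 at 174 ± 7.49 and Foxp3 at 9.92 ± 1.47 TPM, with a sum of 183 to 201 TPM. Of the 6 CD8 and NK markers, Nkg7 at 11.4 ± 2.25 and Cd8b1 at 7.32 ± 1.16 TPM did, with Klrb1c at no fragment and a sum of 14.8 to 22.7 TPM. Id2, Lag3, Il7r and Foxp3 are also expressed by other T cells. The sum of the regulatory T-cell list was 201, 192, 183 and 184 TPM in replicates 1 to 4, most of it Lag3 at 185, 173, 169 and 170 TPM. Foxp3 was at 10.3, 11.8, 8.42 and 9.17 TPM, the same order of libraries as Il10. It was not called (edgeR adjusted p = 0.765) but was under 0.05 before adjustment. Ikzf2 was at 2.49, 2.44, 1.84 and 2.38 TPM, and mainly replicate 3 stood apart. Entpd1 was at 1.42, 2.30, 1.39 and 1.38 TPM, and mainly replicate 2 stood apart. Neither gene thus clearly divided replicates 1 and 2 from 3 and 4. Nrp1 and Itga2 did not divide them either. The sum of the signalling genes, at 1504, 1501, 1494 and 1453 TPM, was also higher in replicates 1 and 2, by a small margin. So were those of the class II receptor chains, at 91.5, 89.9, 87.2 and 88.7 TPM, and of the genes around Il10rb, at 546, 541, 530 and 525 TPM. Sums of most other lists, such as the Th17 markers at 4122, 4036, 3961 and 4064 TPM, were not. The part of regulatory T cells in the level of Il10 was not tested. In these bulk libraries, fewer cells that express a gene and less RNA per cell cannot be told apart.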

How the data were processed

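RNA was measured in 4 Th17 libraries of 1 group. Raw counts of fragments over exons were deposited for each gene, made per the file headers with featureCounts 1.4.6-p4 on paired fragments with both ends aligned, reverse-stranded (option 2), with GENCODE vM13. The build is mm10 per the labels, and a version of the aligner was not found in the labels or headers. Headers show no option for fragments in several places or genes, which by default are left out. The deposited exon length joins all isoforms and lowers the TPM of genes with unused exons.

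TPM was computed from these counts. Symbols came from GENCODE vM21, with 50376 of 50600 identifiers matched. Each floor is 3 fragments, and Poisson intervals are at 95%. The spread test used edgeR 4.0.16 in R 4.3.3 (TMM, filterByExpr, glmQLFit with an intercept, robust prior), referring residual quasi-dispersion over the trended prior to the F distribution with the largest prior degrees of freedom, with Benjamini-Hochberg adjustment over all tested genes, and was tested on simulated data. DESeq2 1.42.0 gave the alternative size factors. Other work used Python 3.11.15, scipy 1.17.1, Biopython 1.88 and matplotlib 3.10.9. Shared sequence was measured in 50-base words of GENCODE vM21 transcripts on both strands.

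The members and lists were chosen with earlier results of these data known. Named genes were all members, the 4 highest and the lowest of each list (for markers of other cell types, those at 1 TPM that lead the list), all neighbours and called genes, and the 5 most like Il10. Jak1, Tyk2, Socs3, Prdm1, Bhlhe40, Ahr, Il1rn, Epcam, Il17a, Ccr6, Ikzf2, Entpd1 and a few marker genes at 0 were added after their values were seen. One gene that this rule names is not reported here. E4f1 stands in the Il10 regulator list without a known role there, so counts are also given without it. Alternatives covered normalisation, filters, pseudocount, length, thresholds and each replicate left out.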

Additional observations from a re-analysis of the deposited data

Results flagged for a closer look

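Of 71 sets of 4 library values that were examined, 5 had a library far from the other 3 (a gap, as a part of the whole range, above Dixon's 95% critical value), and chance alone marks about 1 in 20. None was a member of the family. The marker Ighm was lowest in replicate 2, at 48.7 TPM against 56.2 to 57.5 TPM in the others, a gap of 0.849 of the range. Ikzf2 was lowest in replicate 3, at 1.84 TPM against 2.38 to 2.49 TPM (0.834 of the range). Near Il22, Mdm1 was lowest in replicate 1, at 8.99 TPM against 10.7 to 11.02 TPM (0.845), and Nup107 highest in replicate 4, at 129 TPM against 121.004 to 121.46 TPM (0.944). Near Il10, Rassf5 was highest in replicate 1, at 167 TPM against 149 to 152 TPM (0.866).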

How the results depend on the processing

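No paired analysis was possible because there was 1 group. The number of genes called as variable was 36, and it became 94 with no filter beyond 1 fragment, 17 with a prior without robust estimation, and between 15 and 37 with a replicate left out (15 without replicate 4, where 588 had an unadjusted p under 0.05). The adjusted p of Il10 lay between 0.356 and 0.958 over its alternatives, so it was called under none, and its unadjusted p rose to 0.0644 without replicate 2. The epithelial list had 2 genes at the threshold of 0.5 TPM, and between 1 and 2 with a replicate left out (2 without replicate 2), in place of 1. Members at the threshold numbered 4, with 5 at 0.5 TPM and 3 at 2 TPM. Every contrast between members kept its direction under its alternatives. The mean of Il10rb was 8.44 TPM with 200 bases taken from each length. Taken over fragments in place of TPM, or with a replicate left out, the share of each ligand with a fragment moved by less than its SD. With the length of Il22 not shared with Iltifb, a setting chosen after seeing the data, the share of Il22 was 30.7% in place of 21.0%, a move of more than its SD. Replicates 1 and 2 alone gave Il10 9.07 TPM and replicates 3 and 4 alone 5.28 TPM, a split chosen after seeing the data. Depth limits the genes with few fragments, Il24 and Il10ra among them.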
